A study of Homo sapiens with 6 samples.

Results

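The genes described here are those of MHC class I antigen presentation and of the interferon response in HGC-27 cells, an undifferentiated human gastric cancer line. A list of 42 gene symbols was looked up among the 62443 genes of the deposited table, and all 42 were found. Of these, 10 belonged to class I presentation and 32 were interferon-stimulated, and the groups are described apart. RNA sequencing compared 3 control libraries (Con) with 3 libraries from cells treated with GLUP, to ask which pathways differ after the treatment. GLUP is a synthetic cyclic peptide modelled on VGLL4, a cofactor of the Hippo transcription factor TEAD4, and is meant to link TEAD4 molecules to each other. Con cells are labelled as untreated, whereas in the methods of the study the negative control was the buffer in which the peptide was kept. The duration of treatment is given differently in the results and in the methods of the study. All 6 libraries came from a single cell line with no engineered allele. Levels are FPKM, in which fragments are scaled to transcript length and to the mapped fragments of the library. Genes were tested where their level averaged 1 FPKM or more over the 6 libraries, which 8 class I members and 28 interferon-stimulated members met (36 of 42), among 7406 genes in all. TAP2, ERAP1, IRF1, IFIH1, MX1 and XAF1 fell under it.

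MHC class I molecules consist of a polymorphic heavy chain and the invariant light chain B2M, and they display peptides that the TAP transporter carries into the endoplasmic reticulum. Type I and type III interferons act through JAK kinases on a complex that contains STAT2 and IRF9 and binds the interferon-stimulated response element (ISRE) in the promoters of antiviral genes. Interferon gamma acts through the gamma-activated site (GAS), and the class I genes respond to both pathways and to the transactivator NLRC5.

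Promoters are shown for 7 members with low and high levels and with differences of both signs, since the ISRE is the element through which the complex named above acts. Each is the 250 bases before the transcription start in the RefSeq promoter table (GRCh38.p14), 5′ to 3′ in the direction of the gene. The positions given are those of the exact match in GRCh37, the build of the gene identifiers. Capitals mark every match to the ISRE core letters GAAANNGAA on either strand.
HLA-B, chr6:31324957-31325206, minus strand: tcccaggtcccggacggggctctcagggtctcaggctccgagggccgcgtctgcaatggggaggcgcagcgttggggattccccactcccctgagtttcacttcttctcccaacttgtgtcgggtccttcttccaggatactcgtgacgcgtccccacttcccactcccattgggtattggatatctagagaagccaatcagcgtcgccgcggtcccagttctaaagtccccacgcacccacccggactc
HLA-F, chr6:29690961-29691210, plus strand: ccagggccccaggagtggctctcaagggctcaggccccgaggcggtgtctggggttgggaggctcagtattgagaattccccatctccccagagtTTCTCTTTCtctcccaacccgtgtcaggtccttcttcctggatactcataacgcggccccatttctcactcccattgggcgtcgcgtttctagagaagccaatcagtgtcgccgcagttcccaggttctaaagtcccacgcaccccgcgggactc
B2M, chr15:45003465-45003714, plus strand: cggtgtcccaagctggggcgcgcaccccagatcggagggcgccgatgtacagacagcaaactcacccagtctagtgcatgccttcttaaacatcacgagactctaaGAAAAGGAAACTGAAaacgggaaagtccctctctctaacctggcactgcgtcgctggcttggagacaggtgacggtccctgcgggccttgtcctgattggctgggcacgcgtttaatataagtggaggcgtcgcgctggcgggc
BST2, chr19:17516440-17516689, minus strand: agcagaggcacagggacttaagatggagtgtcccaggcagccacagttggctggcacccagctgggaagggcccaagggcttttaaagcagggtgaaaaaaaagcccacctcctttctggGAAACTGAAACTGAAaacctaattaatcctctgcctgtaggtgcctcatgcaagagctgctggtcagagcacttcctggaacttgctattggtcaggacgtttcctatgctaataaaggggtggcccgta
ISG15, chr1:948627-948876, plus strand: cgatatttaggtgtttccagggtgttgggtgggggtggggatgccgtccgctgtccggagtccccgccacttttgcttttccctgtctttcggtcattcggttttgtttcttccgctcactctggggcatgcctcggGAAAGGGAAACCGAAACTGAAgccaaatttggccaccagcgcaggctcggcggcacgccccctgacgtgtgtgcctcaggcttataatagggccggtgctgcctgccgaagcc
IFIT3, chr10:91087504-91087753, plus strand: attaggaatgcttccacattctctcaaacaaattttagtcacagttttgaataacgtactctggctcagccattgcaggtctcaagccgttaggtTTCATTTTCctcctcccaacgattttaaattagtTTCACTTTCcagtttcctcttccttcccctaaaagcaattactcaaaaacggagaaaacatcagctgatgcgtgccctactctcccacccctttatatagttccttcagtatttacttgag
IFI44L, chr1:79085883-79086132, plus strand: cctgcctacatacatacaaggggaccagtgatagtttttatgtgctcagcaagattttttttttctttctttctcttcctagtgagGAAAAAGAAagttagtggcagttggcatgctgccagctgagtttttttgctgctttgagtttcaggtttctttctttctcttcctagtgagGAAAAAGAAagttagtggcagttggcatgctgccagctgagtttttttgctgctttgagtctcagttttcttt
Upstream of B2M, which encodes the light chain, overlapping matches began 144 and 138 bases before the start. BST2 carried a pair at 130 and 124 bases, of which 1 overlapped a match to the GAS letters TTCNNNGAA. ISG15 had 3 overlapping matches, the first at 113 bases. IFI44L had matches at 164 and 73 bases and IFIT3 at 155 and 121 bases in the promoter shown. Another RefSeq promoter of IFIT3 held matches at 99, 93 and 50 bases. HLA-F held 1 match, and the letters were not in the window of HLA-B. The annotated gene of HLA-B begins 9888 bases and that of ISG15 12359 bases upstream of the RefSeq start used here.

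The table held promoters for 35 of the 42 members, and the ISRE letters occurred in 5 of 8 class I members (62.5%) and in 17 of 27 interferon-stimulated members (63%). Among all 27305 genes with a promoter, 8.41% held them, and so did 8.01% of the 5408 that were also tested by level. The GAS letters occurred in 1 of 8 class I members (12.5%) and in 8 of 27 interferon-stimulated members (29.6%), compared with 8.09% of all genes. A match is a description of the letters only. Among the tested interferon-stimulated members, 15 had the ISRE letters, and 7 of these had a higher and 8 a lower mean in GLUP.

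The libraries were compared first, because the Con libraries were unequal. Con replicate 2 had a mean correlation of 0.898 with the other libraries on the log2 scale, against 0.954 to 0.964 for the remaining 5. Its estimated relative depth was the lowest, 0.832 of that of GLUP replicate 2. Only 4.67% of its low values fitted that estimate, so this depth is uncertain. In Con replicate 2 the deviation of genes from their mean followed the GC content of the transcript with a Spearman coefficient of -0.601. The coefficient was -0.343 in Con replicate 1. The coefficient was 0.458 in Con replicate 3 and 0.340 to 0.544 in the GLUP libraries. VIM lay between 222 and 387 FPKM, while EPCAM and CDH1, markers of epithelial cells, did not exceed 0.124 FPKM. The epithelial keratins were low but present, and higher in every GLUP library, with KRT8 at 1.05 to 1.88 FPKM in Con and 2.19 to 2.30 FPKM in GLUP and KRT18 at 0.917 to 1.00 FPKM and 1.64 to 2.51 FPKM. The part of these keratins in the results was not tested. None of 10 leukocyte markers reached a mean of 1 FPKM, and 5 of them were listed at 0 in all libraries. Their summed level was 0.768 to 1.39 FPKM in Con and 1.76 to 2.55 FPKM in GLUP.

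The comparison of GLUP with Con was then read for the members from a limma fit of all 7406 genes. No gene passed an adjusted p of 0.05 (0%), and accordingly no member did. The study itself reported changed genes at an FDR under 0.05 and a fold change threshold in GLUP-treated HGC-27 cells, without naming a model. The absence of calls here is a result of this limma fit of FPKM values only. The smallest adjusted p of a member was 0.194. At an unadjusted p under 0.05, 7 members were higher in GLUP and 5 lower, where 4.46% of all genes were higher and 17.2% lower. The 3 GLUP libraries lay above all Con libraries for 9 members and below all of them for 5, against 7.55% and 22.7% of all genes. Under the trimmed mean scaling these counts were 13 and 4, against 14.3% and 14.4% of all genes, and after correction for GC content and length 13 and 3, against 14.5% and 13.7%. With 3 libraries per group an exact permutation test cannot go below 0.1, the value that all 14 of these members reached. The methods of the study speak of biological replicates, but neither they nor the labels say whether each library was a separate culture. These p-values measure the spread between these libraries. RNA came from whole cultures, so that a lower level in every cell and fewer expressing cells cannot be told apart.

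The means of the class I group were mostly higher in GLUP, whereas those of the interferon-stimulated group were divided, and no member of either passed after adjustment. Of the 8 tested class I members, 7 had a higher mean in GLUP, and their median log2 fold change was 1.00, compared with -0.23 over all genes tested. Of the 28 interferon-stimulated members, 15 had a higher and 13 a lower mean, with a median of 0.11. Among all 7406 genes tested, 2556 had a higher and 4850 a lower mean. The class I median was 0.56 without Con replicate 2 and 0.50 when members under 1 FPKM were included. These medians are descriptions, and the difference between both groups was not tested.

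The heavy chain genes showed a uniform pattern. The 4 genes lie in the MHC on chromosome 6, and positions are given in GRCh37. HLA-B, a classical heavy chain (ENSG00000234745, chr6:31321649-31334844, minus strand), was at 130.1, 42.4 and 170.8 FPKM in Con and at 306.6, 246.6 and 212.3 FPKM in GLUP, each in the order of replicates 1, 2 and 3, as for all genes below. HLA-C, the other classical heavy chain on the list (ENSG00000204525, chr6:31236526-31239907, minus strand), was at 41.2, 13.3 and 64.2 FPKM in Con and at 129.5, 112.1 and 90.9 FPKM in GLUP. In both genes every GLUP library exceeded every Con library, and Con replicate 2 was far below the rest. HLA-E (ENSG00000204592, chr6:30457286-30461971, plus strand), which presents leader peptides to natural killer cells, was at 24.9, 8.89 and 31.2 FPKM in Con and at 62.4, 50.2 and 43.5 FPKM in GLUP. HLA-F, a nonclassical chain (ENSG00000204642, chr6:29690552-29706305, plus strand), was at 10.3, 1.52 and 10.0 FPKM in Con and at 21.8, 19.5 and 15.9 FPKM in GLUP. The order of the libraries was nearly the same in all 4 genes, with GLUP replicate 1 highest and Con replicate 2 lowest.

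Mean levels in GLUP were 2.80-fold those in Con for HLA-C, 2.61-fold for HLA-F, 2.40-fold for HLA-E and 2.23-fold for HLA-B. On the log2(FPKM + 1) scale the difference was 1.70 ± 0.50 (SE, n = 3 per group, limma adjusted p = 0.194) for HLA-C and 1.38 ± 0.44 (adjusted p = 0.194) for HLA-E. It was 1.55 ± 0.53 for HLA-F and 1.35 ± 0.48 for HLA-B, both with an adjusted p of 0.198. All 4 were past an unadjusted p of 0.05, and none passed after adjustment. Without Con replicate 2 the 4 differences shrank to between 0.75 and 1.08, and the groups still did not overlap. After correction of each library for a trend in GC content and length they were 1.06 to 1.37, also without overlap. The transcripts had a GC content of 55.1% to 60.1%, a range in which the median gene was higher in GLUP. Heavy chain genes are closely related in sequence, and how reads that fit more than 1 of them were assigned is not given in the sources used here, so that their separate levels are uncertain.

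**Figure D1:**
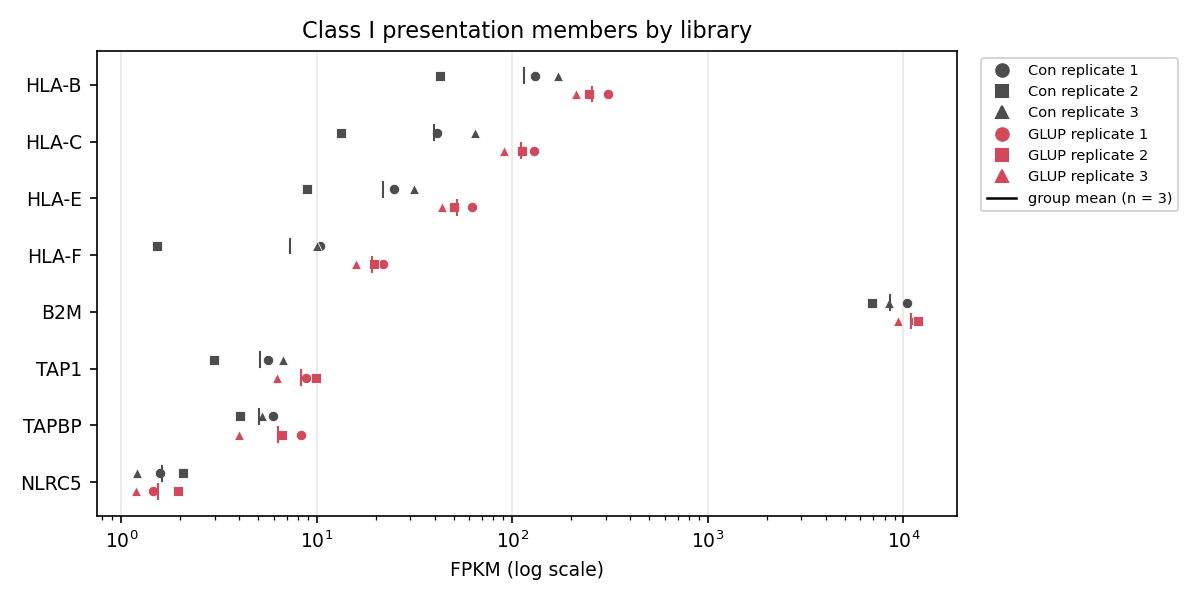
FPKM of the 8 tested class I presentation members in each library on a log axis, with Con in grey, GLUP in red, a marker shape per replicate and a bar at the mean of each group (n = 3). For HLA-B, HLA-C, HLA-E and HLA-F all red markers lie to the right of all grey ones, and the grey square of Con replicate 2 lies farthest left.

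B2M, the shared light chain (ENSG00000166710, chr15:45003556-45011049, plus strand), was at 10387, 6942 and 8386 FPKM in Con and at 11518, 11832 and 9340 FPKM in GLUP, rank 16 among all genes tested. Its mean in GLUP was 1.27-fold that in Con (log2 difference 0.36 ± 0.22, limma adjusted p = 0.319), and the groups overlapped because GLUP replicate 3 was below Con replicate 1. Per length, the light chain was thus present at 9734 FPKM on average, compared with 184.8 FPKM for HLA-B, the most abundant of the 4 heavy chains. After correction for GC content and length, the difference of B2M, which has a GC content of 39.1%, was 0.89, and the groups no longer overlapped. No alternative setting gave B2M a larger value. The trimmed mean scaling (0.66) and fits lacking Con replicate 1 (0.51) or GLUP replicate 3 (0.47) also separated the groups. Quantile normalization lowered the difference to 0.09, and omitting Con replicate 2 lowered it to 0.22. The groups overlapped in both of these settings.

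The genes of peptide supply were low. TAP1, a subunit of the peptide transporter, was at 5.63, 2.97 and 6.74 FPKM in Con and at 8.83, 9.88 and 6.25 FPKM in GLUP, a log2 difference of 0.64 ± 0.33 (limma adjusted p = 0.268) that was 0.36 without Con replicate 2. TAPBP, which encodes tapasin, the bridge between the transporter and the heavy chain, ranged from 4.04 to 5.93 FPKM in Con and from 3.99 to 8.27 FPKM in GLUP. The groups overlapped for both. TAP1 overlaps PSMB9 on the opposite strand, a gene with a mean of 1795 FPKM, and strand-specific counting is not given in the sources used here, so its level is uncertain. TAP2, the partner of TAP1, stayed between 0.196 and 0.534 FPKM, and ERAP1, the aminopeptidase that trims peptides in the endoplasmic reticulum, between 0.181 and 0.364 FPKM. NLRC5 ranged from 1.197 to 2.06 FPKM in Con and from 1.18 to 1.95 FPKM in GLUP, a log2 difference of -0.04 ± 0.24.

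Further genes of the class I pathway outside the list of members were read for comparison. Of 5 immunoproteasome and activator genes, all were tested and 4 had a higher mean in GLUP. PSME2, a subunit of the proteasome activator, had the opposite sign and was the only gene of these past an unadjusted p of 0.05, with 5640 to 6154 FPKM in Con and 3512 to 4710 FPKM in GLUP (log2 difference -0.55, limma adjusted p = 0.199). Among 6 further assembly factors, 3 had a higher and 3 a lower mean. CANX, the chaperone calnexin, was at 11.3 to 24.0 FPKM in Con and at 7.13 to 8.73 FPKM in GLUP (log2 difference -1.02, adjusted p = 0.194). Of 7 factors that bind the SXY box of class I promoters, 5 were tested, and NFYB was at 1.51 to 5.02 FPKM in Con and at 1.01 to 1.35 FPKM in GLUP (log2 difference -0.90, adjusted p = 0.198). For PSME2, CANX and NFYB every GLUP library was below every Con library. Each of these lists held 1 such gene and 1 gene with every GLUP library above every Con library, against 22.7% and 7.55% of all genes.

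Several interferon-stimulated members were among the most abundant transcripts of these cells, in Con as well as in GLUP. IFITM1 ranked 3, IFITM3 4, IFI27 6, ISG15 11 and IFITM2 12 among all genes tested. These 5 and B2M together held 7.04% to 12.9% of the FPKM total of a library. The 42 members made up 10.5%, 7.22% and 12.4% of the total in Con and 12.4%, 12.7% and 13.2% in GLUP. Con replicate 2 again lay lowest, and Con replicate 3 lay below GLUP replicate 1 by less than the GLUP libraries differed among themselves.

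**Figure D2:**
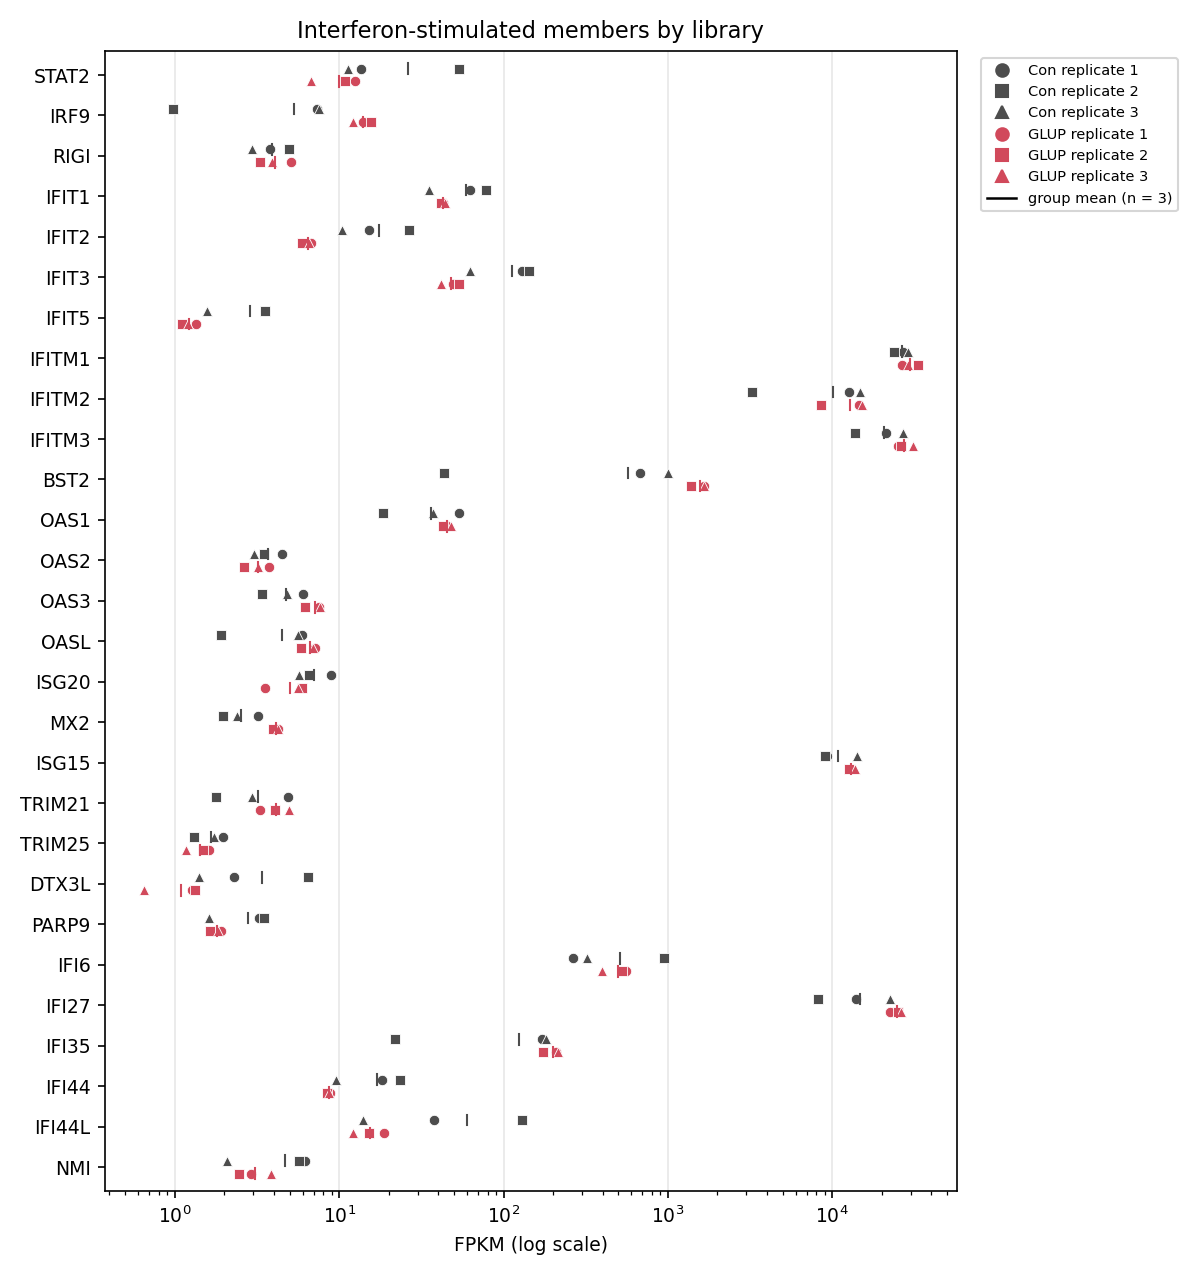
FPKM of the 28 tested interferon-stimulated members in each library on a log axis, with Con in grey, GLUP in red, a marker shape per replicate and a bar at the mean of each group (n = 3). Levels run from 0.648 FPKM for DTX3L in a GLUP library to 23790 FPKM and above for IFITM1, and the red markers of a gene cluster more tightly than the grey ones in 26 of 28 members on the log2 scale.

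The signalling factors differed in sign. STAT2 was at 13.5, 53.6 and 11.3 FPKM in Con and at 12.5, 10.8 and 6.72 FPKM in GLUP, a log2 difference of -0.996 ± 0.530 (limma adjusted p = 0.276) that shrank to -0.32 without Con replicate 2. IRF9, the DNA-binding subunit of the same complex (ENSG00000213928, chr14:24630443-24637252), was at 7.30, 0.972 and 7.59 FPKM in Con and at 13.9, 15.7 and 12.2 FPKM in GLUP. Its log2 difference was 1.52 ± 0.52 (adjusted p = 0.198), and 0.82 without Con replicate 2, with no overlap in either case. Con replicate 2 was therefore highest of all libraries for STAT2 and lowest for IRF9. IRF1, a transcription factor that also drives class I genes, had a mean just under the minimum for testing. It was at 0.582, 0.534 and 0.510 FPKM in Con and at 1.27, 1.28 and 1.77 FPKM in GLUP. Every GLUP library was above every Con library, as for 4.39% of all genes in the fit without a filter. The gene overlaps the antisense transcript IRF1-AS1, which had a mean of 1.45 FPKM. Strand-specific counting is not given in the sources used here, so the level of IRF1 is uncertain. Of the cytosolic RNA sensors, RIGI ranged from 2.97 to 4.97 FPKM in Con and from 3.30 to 5.10 FPKM in GLUP, and IFIH1 did not exceed 0.218 FPKM and was listed at 0 in 3 libraries.

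The IFIT family, whose proteins bind RNA and restrain the translation of viral messages, was the group of members with lower means in GLUP throughout. IFIT2 (ENSG00000119922, chr10:91043451-91069028) was at 15.2, 26.8 and 10.5 FPKM in Con and at 6.73, 5.93 and 6.60 FPKM in GLUP. IFIT3 (ENSG00000119917, chr10:91087064-91137230) was at 129.9, 143.2 and 62.7 FPKM in Con and at 49.4, 53.6 and 41.6 FPKM in GLUP. IFIT5 (ENSG00000152778, chr10:91174325-91181362) was at 3.52, 3.53 and 1.58 FPKM in Con and at 1.35, 1.10 and 1.204 FPKM in GLUP. In these 3 genes every GLUP library was below every Con library, and Con replicate 3 was the Con library nearest to GLUP.

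Mean levels in Con were 2.72-fold those in GLUP for IFIT2, 2.32-fold for IFIT3 and 2.36-fold for IFIT5. The log2 difference was -1.22 ± 0.35 (SE, limma adjusted p = 0.194) for IFIT2, -1.12 ± 0.37 (adjusted p = 0.194) for IFIT3 and -0.76 ± 0.28 (adjusted p = 0.198) for IFIT5. IFIT1 overlapped, at 35.2 to 78.3 FPKM in Con and 41.6 to 44.04 FPKM in GLUP (log2 difference -0.37), and its difference was 0.09 once corrected for GC content and length. After this correction the differences of IFIT2 and IFIT3 were -0.75 and -0.72 and that of IFIT5 was -0.18, still without overlap between the groups. The transcripts of the family have a GC content of 37.6% to 44.4%, a range in which the median gene was lower in GLUP. IFIT1, IFIT2 and IFIT3 overlap LIPA on the opposite strand, which had a mean of 4.44 FPKM.

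The membrane restriction factors had higher means in GLUP, by amounts that ranged widely. BST2, the tetherin that holds budding virions at the cell surface (ENSG00000130303, chr19:17513748-17516439), was at 675.4, 43.3 and 1007 FPKM in Con and at 1656, 1373 and 1647 FPKM in GLUP. All GLUP libraries exceeded all Con libraries, and Con replicate 2 was more than an order of magnitude below the others. The log2 difference of BST2 was 2.32 ± 0.93 (limma adjusted p = 0.204), the largest of all members, and 0.91 without Con replicate 2. IFITM1, which blocks viral entry (ENSG00000185885, chr11:310041-315272), was at 26918, 23790 and 28836 FPKM in Con and at 26680, 33285 and 28838 FPKM in GLUP. Its groups overlapped, with a log2 difference of 0.16 ± 0.17 (adjusted p = 0.563) that was zero to 2 decimals after quantile normalization. IFITM3 (ENSG00000142089, chr11:319676-329475) was at 21138, 13691 and 26889 FPKM in Con and at 25096, 26205 and 30838 FPKM in GLUP, a log2 difference of 0.46 ± 0.25 (adjusted p = 0.276) that was 0.19 without Con replicate 2. IFITM2 was at 12581, 3232 and 14642 FPKM in Con and at 14583, 8579 and 15172 FPKM in GLUP, and its log2 difference of 0.56 became -0.13 without Con replicate 2. The 3 IFITM genes are near-identical neighbours on chromosome 11, so that the split of reads between them is uncertain.

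The OAS family, of which OAS1, OAS2 and OAS3 make the 2′-5′ oligoadenylates that activate RNase L, had higher means in GLUP except for OAS2. OAS3 ranged from 3.38 to 6.05 FPKM in Con and from 6.22 to 7.60 FPKM in GLUP, without overlap (log2 difference 0.52). OAS1 ranged from 18.6 to 53.2 FPKM in Con and from 43.1 to 47.7 FPKM in GLUP. OASL ranged from 1.91 to 5.90 FPKM in Con and from 5.89 to 7.11 FPKM in GLUP. Con replicate 2 was lowest for all 3, and without it the differences of OAS1, OASL and OAS3 were 0.03, 0.17 and 0.34. OAS2 ranged from 3.01 to 4.52 FPKM in Con and from 2.63 to 3.74 FPKM in GLUP, a difference of -0.15 that turned to 0.08 under the trimmed mean scaling and 0.10 under quantile normalization. ISG20, an RNA exonuclease, ranged from 5.71 to 8.96 FPKM in Con and from 3.54 to 5.97 FPKM in GLUP. Of the MX GTPases, MX2 was at 1.98 to 3.21 FPKM in Con and at 3.94 to 4.26 FPKM in GLUP, without overlap (log2 difference 0.56 ± 0.25, limma adjusted p = 0.234), whereas MX1 did not exceed 0.201 FPKM in any library.

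Among the ubiquitin-like modifier and ligases, ISG15, the modifier itself, was at 9221, 9031 and 14180 FPKM in Con and at 12924, 12616 and 13701 FPKM in GLUP. Con replicate 3 was the highest of the 6, and the log2 difference of 0.31 became -0.02 after correction for GC content and length. ISG15 has a GC content of 64.2%, the highest of the members. TRIM21, a cytosolic antibody receptor and ubiquitin ligase, ranged from 1.77 to 4.90 FPKM in Con and from 3.30 to 4.94 FPKM in GLUP. TRIM25, the ligase that acts on RIG-I, ranged from 1.31 to 1.95 FPKM in Con and from 1.18 to 1.61 FPKM in GLUP. DTX3L and PARP9 encode partner proteins and overlap each other on opposite strands. DTX3L was at 2.28, 6.49 and 1.39 FPKM in Con and at 1.28, 1.33 and 0.648 FPKM in GLUP, without overlap (log2 difference -0.92 ± 0.39, limma adjusted p = 0.216). The difference was -0.45 without Con replicate 2, and the groups overlapped under the trimmed mean scaling, under quantile normalization and after correction for GC content and length. PARP9 ranged from 1.62 to 3.50 FPKM in Con and from 1.64 to 1.91 FPKM in GLUP.

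The remaining members lay on both sides. IFI27, a small hydrophobic interferon-inducible protein (ENSG00000165949, chr14:94571182-94583032), was at 13869, 8233 and 22336 FPKM in Con and at 22455, 25124 and 26172 FPKM in GLUP. The groups did not overlap, although Con replicate 3 lay close to GLUP replicate 1, and the log2 difference was 0.84 ± 0.31 (limma adjusted p = 0.198). It was 0.48 without Con replicate 2, and 0.43 with overlapping groups under quantile normalization. IFI35 was at 170.6, 22.0 and 182.1 FPKM in Con and at 208.2, 172.8 and 215.8 FPKM in GLUP, and its log2 difference of 1.15 was 0.17 without Con replicate 2. IFI6 was at 265.5, 953.1 and 321.6 FPKM in Con and at 557.04, 529.1 and 394.9 FPKM in GLUP. Here Con replicate 2 was the highest library, and without it all GLUP libraries lay above the Con libraries, with a log2 difference of 0.74 in place of 0.17.

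IFI44L and IFI44, neighbouring genes on chromosome 1, had lower means in GLUP. IFI44L was at 37.6, 128.9 and 13.9 FPKM in Con and at 18.8, 15.2 and 12.1 FPKM in GLUP, the lowest log2 difference of the members at -1.38 ± 0.64 (limma adjusted p = 0.240), and -0.57 without Con replicate 2. IFI44 ranged from 9.61 to 23.3 FPKM in Con and from 8.41 to 8.78 FPKM in GLUP, without overlap, and its log2 difference of -0.83 was -0.24, with overlap, after correction for GC content and length. NMI, which binds STAT proteins, ranged from 2.07 to 6.19 FPKM in Con and from 2.45 to 3.83 FPKM in GLUP. XAF1, an antagonist of an apoptosis inhibitor, did not exceed 0.769 FPKM.

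The genes upstream of the response were read in the same fit. Of 7 interferon ligands, 2 were tested. IFNB1 ranged from 3.32 to 6.37 FPKM in Con and from 2.99 to 4.45 FPKM in GLUP, and IFNL1, a type III interferon, from 1.61 to 2.45 FPKM in Con and from 1.89 to 3.30 FPKM in GLUP. Both ligands were above 0 in every Con library, and their groups overlapped. Of 10 genes for receptors, kinases and signalling, 6 were tested and 4 had a lower mean in GLUP, as did 4850 of all 7406 genes tested. In 3 of these 6 every GLUP library was below every Con library, against 22.7% of all genes. At an unadjusted limma p under 0.05, 1 of the 6 was lower, against 17.2% of all genes. Of 9 genes for nucleic acid sensing, 4 were tested. STING1, the adaptor of DNA sensing, was at 0.740 to 1.72 FPKM in Con and at 2.19 to 3.45 FPKM in GLUP, without overlap (log2 difference 0.81 ± 0.27, limma adjusted p = 0.194). None of the 3 tested negative regulators, out of 7 listed, passed an unadjusted p of 0.05, with log2 differences of 0.55 for USP18, which removes ISG15, and -0.72 for PTPN2, a phosphatase of the JAK-STAT pathway. Over all 51 further pathway genes, 31 were tested, 1 was higher and 4 were lower at an unadjusted p under 0.05, and none passed after adjustment. These counts are no larger than the shares of all genes, 4.46% and 17.2%, would give.

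The log2 differences of the interferon-stimulated members were correlated with base composition. Across the 28 tested interferon-stimulated members the Spearman coefficient between the log2 difference and GC content was 0.74, compared with 0.56 across the 7279 tested genes with a known GC content. All these values come from the same 6 libraries, and genes are not independent replicates. After the same correction of each library the coefficient was 0.45 for the interferon-stimulated members and 0.02 for all genes. The correction was fitted over all these genes, so the small coefficient for all genes follows from it and is no separate result. Whether base composition had a part in the differences was not tested beyond this correction.

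**Figure D3:**
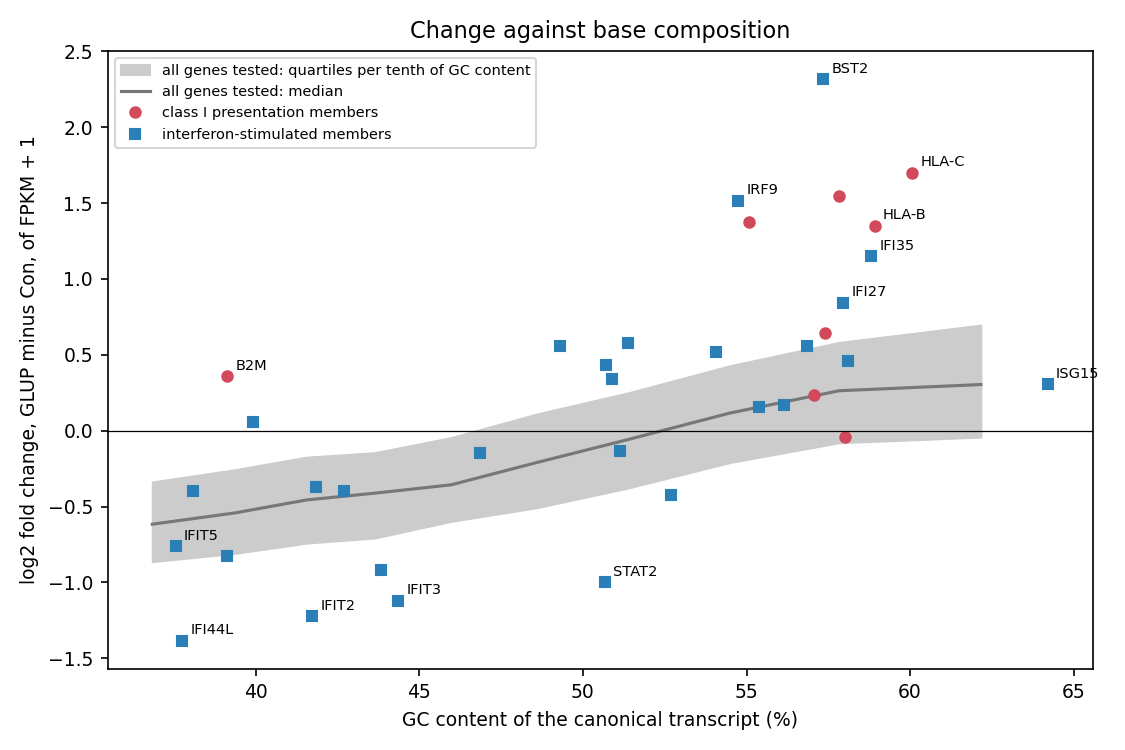
Log2 difference between GLUP and Con (FPKM + 1) of each tested member against the GC content of its transcript in percent, over a grey band that holds the quartiles of all tested genes in each of 10 bins of GC content, with their median as a line. BST2, IRF9 and the 4 heavy chain genes are among the members above the band, and IFI44L, IFIT2, IFIT3 and STAT2 are among those below it. Genes outside the quartiles are common by construction.

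The spread of the Con libraries set the errors. For 33 of 36 members the SD on the log2 scale was larger in Con than in GLUP (91.7%, against 80.7% of all genes), with a median SD of 0.63 in Con and 0.18 in GLUP. Con replicate 2 was the lowest of the 6 libraries for 19 members (52.8%, against 28.8% of all genes) and the highest for 11 (30.6%, against 37.6%). It was lowest for 6 of 8 class I members. Leaving out Con replicate 3 was the only 1 of 16 alternative settings in which any member passed the adjusted threshold. In that fit HLA-B, HLA-C, HLA-E and IFI27 were higher in GLUP and IFIT2, IFIT3, IFIT5, IFI44 and IFI44L were lower, while 2.2% of all genes were called higher and 16.3% lower. It kept only Con libraries whose deviations fell with GC content (-0.343 and -0.601), so group and this trend went together. The members called higher had a GC content of 55.1% to 60.1% and those called lower 37.6% to 44.4%. The part of GC content in these calls was not tested. Leaving out Con replicate 2 gave no call among the members. Of the 36 tested members, 26 had the same direction in every setting in which they were tested, and 10 of the 36 were not tested at the minimum of 5 FPKM. The filters, the variance trend and the replicate block cannot change the log2 difference of a gene, so these settings are no check of direction.

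**Figure D4:**
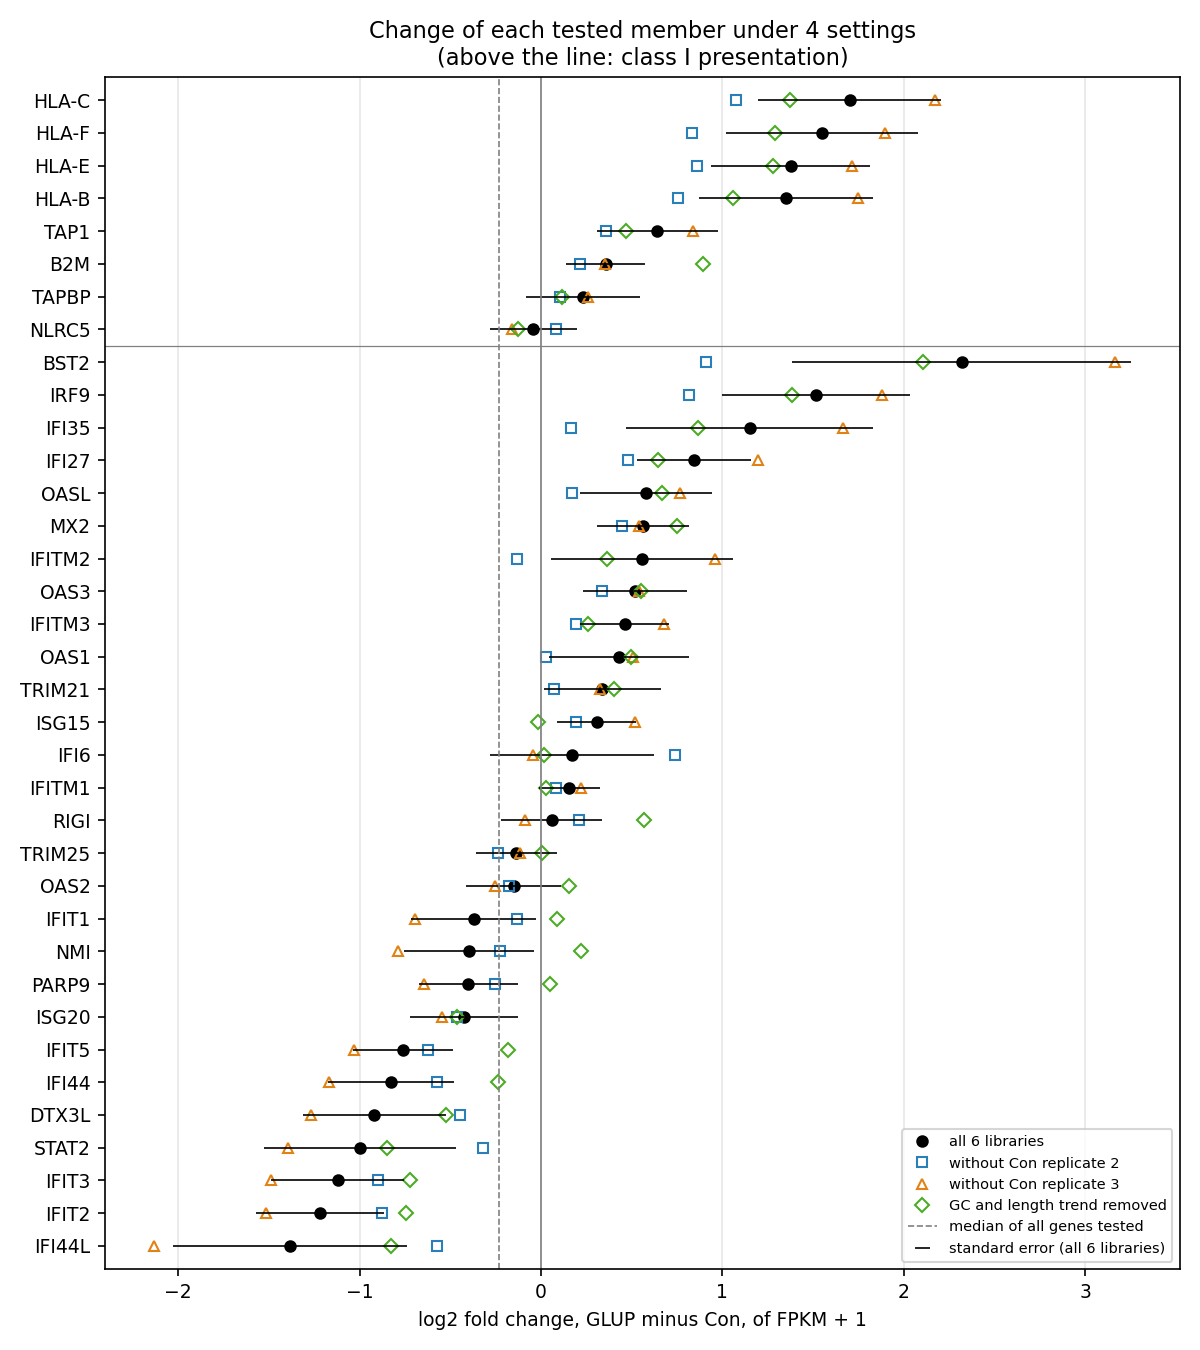
Log2 difference between GLUP and Con (FPKM + 1) of each tested member with all 6 libraries (black, with the standard error of the limma fit as a line), without Con replicate 2 (squares), without Con replicate 3 (triangles) and after correction for GC content and length (diamonds), class I members above the horizontal line. The heavy chain genes, BST2 and IRF9 stay above 0.7 in all 4 settings, whereas IFIT1, IFITM2, OAS2, NMI and PARP9 are among those that cross 0.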

How the data were processed

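RNA sequencing of HGC-27 cells covered 3 Con and 3 GLUP libraries, grouped by their titles. The authors deposited 1 table of FPKM values per gene, normalised to transcript length and to the mapped fragments of each library. The processing notes of the submitters name HISAT2, Cufflinks, RSEM and the build GRCh38.p10, without roles, whereas the identifiers belong to a GENCODE annotation lifted to GRCh37. Strand-specific counting is not given in the sources used here. Of 62492 rows, 49 pseudoautosomal Y copies, all at 0, were merged with their counterparts. FPKM sums were 909735 to 965147 per library. Read counts could not be recovered, since only 4.67% to 6.84% of low values lay within 1% of 1, 2 or 4 times the smallest step. The size of this step gave no more than an uncertain estimate of relative depth.

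Symbols, coordinates and GC content (canonical transcript, known for 98.3% of tested genes and for all members) came from GENCODE lifted to GRCh37. Values were transformed to log2(FPKM + 1), and a two-sided limma fit (version 3.58.1 under R 4.3.3, moderated with a trend) was run on the 7406 genes that averaged 1 FPKM or more, with a threshold of 0.05 on p-values adjusted by Benjamini-Hochberg across this whole set. A log2 difference on this scale understates the change of low genes. Members under the minimum took their values from the fit without a filter. Single members were also tested by an exact permutation test. Alternatives were pseudocounts of 0.1 and 0.01, no filter, a minimum of 5 FPKM, scaling by the trimmed mean of log ratios (30% by ratio, 5% by level), quantile normalization, eBayes without trend, a replicate block, correction of each library for GC content and length by a loess curve (span 0.5), by itself and with the block, and leaving out each library. Counts of members without overlap under these settings were added after seeing the data. The fit was tested on simulated data. Summaries used pandas 2.3.3 under Python 3.11.15.

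The members and lists were chosen with earlier results of these data known. Every member was named. Full statistics were given for the 3 members with the smallest p in each direction and the 3 with the highest mean, and the other pathway genes were given values where an unadjusted p was under 0.05, or else for the 2 largest differences of their list. Values of some of these genes are not reported here.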

Additional observations from a re-analysis of the deposited data

How the results depend on the processing

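With all libraries 0 genes passed the adjusted threshold (1606 at an unadjusted p under 0.05). The number was 1 at a minimum of 5 FPKM, 1 without the variance trend, 1 with the replicate block, 2 after correction for GC content and length, 1 with both, and 0 to 1367 when a library was left out, the highest without Con replicate 3. The number of members called was 0 to 9 when a library was left out, the 9 again without Con replicate 3, and 0 in every other setting. Members with GLUP below Con without overlap numbered 5 (22.7% of all genes), but 3 at a minimum of 5 FPKM, where fewer members were tested (25.5%), 4 under the trimmed mean scaling (14.4%) and quantile normalization (16.1%), 3 after the correction, with or without the block (13.7%), and 5 to 11 without a library, the 11 without Con replicate 3 (43.1%). Members above without overlap numbered 9 (7.55%), and 8 to 13 across the settings, with 4.39% to 14.5% of all genes. The class I median, 1.00, ran from 0.50 with no filter to 1.35 at a minimum of 5 FPKM, and from 0.56 to 1.28 without a library. The median log2 difference of the interferon-stimulated members, 0.11, was 0.31 at a minimum of 5 FPKM, 0.38 under the trimmed mean scaling and -0.0644 to 0.127 without a library. That scaling moved the median of all genes from -0.23 to -0.01.

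Of the members, 10 changed sign somewhere. Under the trimmed mean scaling NLRC5 was at 0.15, OAS2 at 0.0846 and TRIM25 at 0.042, and under quantile normalization at 0.14, 0.10 and 0.0005. After the correction, with or without the block, IFIT1 was at 0.0905, OAS2 at 0.15, ISG15 at -0.0168, TRIM25 at 0.0038, PARP9 at 0.0496 and NMI at 0.22. Without 1 library NLRC5 ran from -0.16 to 0.0806, RIGI from -0.0854 to 0.21, IFITM2 from -0.13 to 0.96 and IFI6 from -0.18 to 0.74. The cause was not tested. The labels do not say whether equal replicate numbers mark a pair. Deviations of same-numbered libraries correlated at 0.132, -0.0102 and -0.173, which cannot decide it with so few libraries. The replicate block called 0 members. Each replicate number occurs once per group, so the block cannot change a log2 difference and is no check of direction. Depth in reads is unknown, so that no counting interval can be given, and members under 1 FPKM rest on few fragments.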
